A study of Mus musculus with 9 samples.

Results

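Histones are the proteins around which DNA is wound, and 6 histone genes stood among the 234 different genes that mark the bone marrow cell populations of this study. They were found by symbol, as the listed genes whose symbols begin with the name of the H1, H2A, H2B, H3 or H4 family, and they are H1f4, H1f5, H2ac8, H2ax, H3c3 and H4c4. Cenpa and Macroh2a1, histone variant genes with symbols of another kind, were not counted among them and are given apart. Together they made up 9 of the 293 entries of the deposited marker table and stood in 3 of its 17 populations. These populations bear the authors' names Immature Neutrophils I, Monocyte prog I (a monocyte progenitor) and Pre/pro B cells (B cell precursors).

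The cells came from 9 C57BL/KaLwRij mice, aged 12 weeks by label, a strain in which the mouse myeloma line 5TGM1 grows in the marrow. By label, 3 mice belonged to the CST6 group (5TGM1 cells and recombinant mouse cystatin M/E, which blocks cysteine proteases of the lysosome), 3 to the PBS group (5TGM1 cells and vehicle) and 2 to the Control group (no 5TGM1 cells), while 1 mouse carried no agent label and entered no group. The 3 groups of the study were equally large and the title of 1 PBS sample runs on from the control titles, so single labels may be wrong. Mononuclear marrow cells were profiled by droplet-based single-cell RNA-Seq after cells with the GFP mark of 5TGM1 had been sorted out. The table pools all mice and holds no value per sample or group, so the effects of tumor and of CST6 were not analysed here, the depth and the number of cells are unknown from it, and none of its values has a replicate error. All AUC values and shares of cells given below are the authors' deposited values, and no difference between them was tested.

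A dividing cell must make enough histone to wrap a second copy of its genome, and most histone genes are read only while DNA is being copied. H2A, H2B, H3 and H4 form the core of the nucleosome, and H1, the linker histone, binds where DNA enters and leaves it. The mRNAs of these replication-dependent genes differ from nearly all others in ending in a short stem-loop rather than in a poly(A) tail, and the stem-loop binding protein SLBP acts on that end. H2ax codes for an H2A variant that is phosphorylated around DNA breaks, and its gene is known to give both a stem-loop and a polyadenylated mRNA. In the marrow, granulocyte, monocyte and B cell precursors divide, while mature neutrophils do not.

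Of the 6 genes, 5 lie on chromosome 13 in the GRCm38 build (mm10), where the largest histone gene cluster of the mouse is found, and all are annotated as protein-coding. H1f5 lies at 21779832 to 21780625, apart from H2ac8 at 23570663 to 23571220, H4c4 at 23581568 to 23581969, H1f4 at 23621777 to 23622558 and H3c3 at 23745042 to 23745521. H2ax lies on chromosome 9 from 44334715 to 44336077. The ends of their mRNAs matter for the measurement, because the 3′ kit used here primes on poly(A). A stem-loop, taken as 16 bases that begin with GG, end with CC, pair over 6 bases on each side and have a loop of 4 that opens with TT, was found in the GENCODE transcripts of 5 of the 6 genes and in 0.594% of 21901 protein-coding genes. The sequences of these transcript ends are shown with the paired stem in capitals and the loop in lower case, in letters of the DNA strand.
H1f4: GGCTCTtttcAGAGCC
H2ac8: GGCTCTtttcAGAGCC
H2ax: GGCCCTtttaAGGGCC
H3c3: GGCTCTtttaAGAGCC
H4c4: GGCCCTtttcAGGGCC
H1f4 and H2ac8 carried the same 16 letters, and H3c3 differed from them only within the loop. The annotated transcript of H1f5 ended with its stop codon, so that no 3′ end was there to search. In the others the annotation ran on beyond the stem-loop, by 74 bases for H3c3, 151 for H2ac8, 770 for H4c4, 822 for H2ax and 1153 for H1f4. Whether the reads came from these longer forms or from mRNAs ending at the loop cannot be told from the table.

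H1f4 and H1f5, the linker histone genes that were listed together for 2 populations, also resembled each other in the DNA before their start sites. The 300 bases from 250 before to 50 after the start are printed from RefSeq (GRCm38.p6, both on the minus strand, 5′ to 3′ along the gene). Capitals mark AAACACA, an element known from H1 gene promoters, CCAAT and TATAAA, each searched on both strands and with no overlap among the matches.
H1f4, chr13:23622509-23622808: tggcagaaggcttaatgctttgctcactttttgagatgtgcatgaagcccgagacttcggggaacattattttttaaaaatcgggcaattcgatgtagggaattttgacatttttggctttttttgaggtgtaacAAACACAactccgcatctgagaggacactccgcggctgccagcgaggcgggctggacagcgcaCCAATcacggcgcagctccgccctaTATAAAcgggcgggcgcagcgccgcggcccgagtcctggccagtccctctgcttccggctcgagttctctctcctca
H1f5, chr13:21780576-21780875: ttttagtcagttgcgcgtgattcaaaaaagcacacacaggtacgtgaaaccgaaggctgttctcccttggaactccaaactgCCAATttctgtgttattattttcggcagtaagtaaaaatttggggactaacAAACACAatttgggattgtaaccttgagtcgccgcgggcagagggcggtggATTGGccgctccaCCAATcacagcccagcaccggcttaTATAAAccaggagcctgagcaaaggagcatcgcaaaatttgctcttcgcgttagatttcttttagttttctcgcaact
In H1f4 the AAACACA element began 115 bases before the start site, CCAAT 52 and TATAAA 27 bases before it. In H1f5 they began 117, 53 and 28 bases before it, and CCAAT was matched at 2 further places. Of 27025 mouse promoters of this length, 1 per gene, 7.14% held AAACACA, 37.9% CCAAT and 14.2% TATAAA, and 0.588% held all 3. The promoters of H2ac8, H4c4 and H3c3 held no AAACACA, while CCAAT was matched at 2 places in H2ac8, 1 in H4c4 and 5 in H3c3. These matches describe letters and say nothing of which factors were bound.

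The question put to the table was where histone genes set a population apart from all other cells. Each gene's score is the area under the receiver operating characteristic curve (AUC), which is 1 where every cell of the population has more of the gene than every other cell and 0.5 where its level does not separate them. No entry of the table was under 0.801 and no list was longer than 20 genes, a length that 11 of the 17 lists reached. A gene that is not listed may thus have fallen below the score or behind the first 20, and its level is then unknown. Immature Neutrophils I listed 5 of the 6 histone genes, against 6.41% of all genes of the table, Monocyte prog I listed 3, against 8.55%, and Pre/pro B cells 1, against 8.55%. Because the 6 genes were taken from these same lists, nothing is read from those shares.

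**Figure D1:**
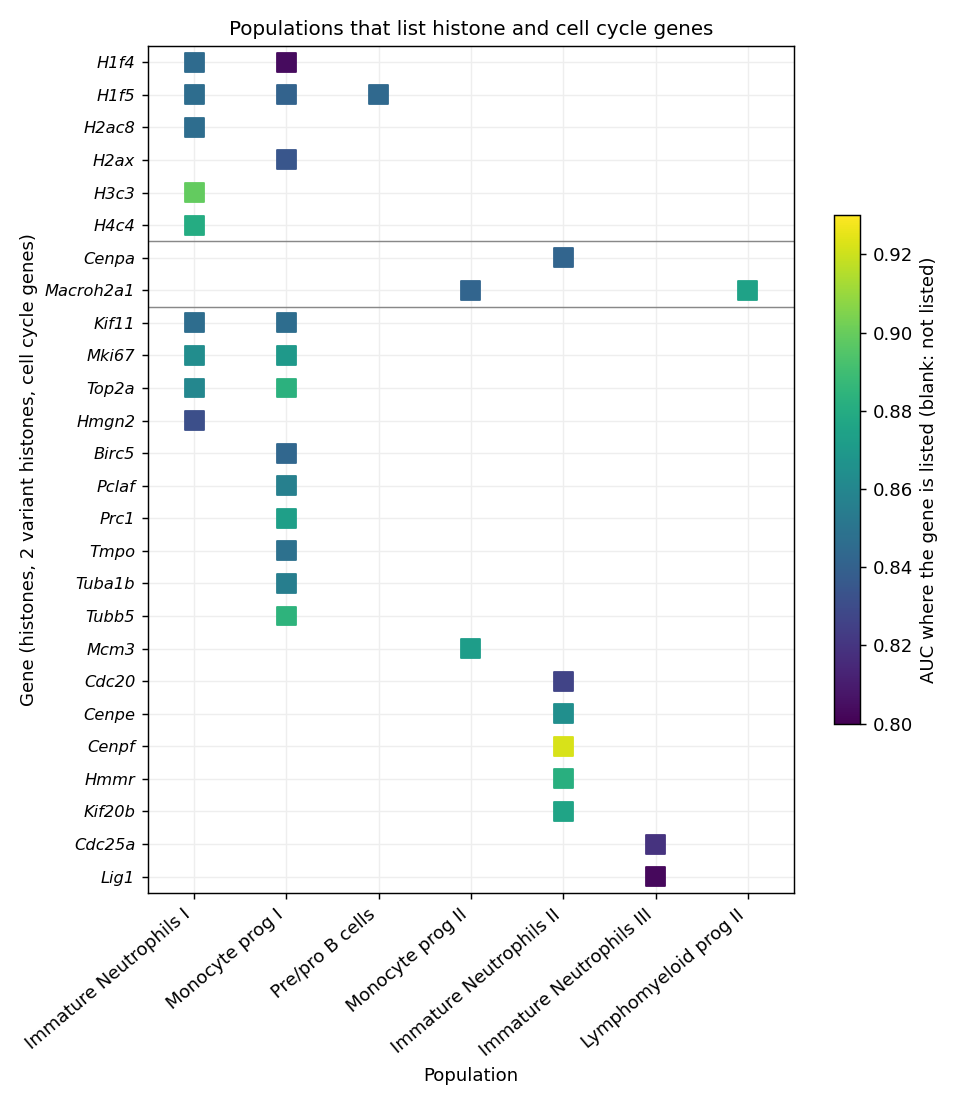
Genes (rows) and the populations (columns) that list them, with the AUC as color and a blank where a gene was not listed; lines part the 6 histone genes, 2 variant histone genes and 18 cell cycle genes. H1f4 shares its pair of columns with Kif11, Mki67 and Top2a, while H1f5 alone of the histones stands in Pre/pro B cells, where none of these cell cycle genes is listed.

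In Immature Neutrophils I, core and linker histones made up 5 of 15 listed genes. H3c3, which codes for histone H3, had an AUC of 0.899 and stood in 2nd place, between Chil3 at 0.903 and the cathelicidin gene Camp at 0.887, both of which are granulocyte genes. H4c4, which codes for histone H4, followed in 4th place with 0.88, ahead of the proliferation marker Mki67 at 0.863. By AUC, the core histones H3 and H4 therefore stood above every cell cycle gene listed for these cells. H2ac8, which codes for histone H2A, and H1f5 were level at 0.846 with the mitotic motor gene Kif11, and H1f4 came next with 0.845. These last 4 genes differed by no more than the last digit the table gives. The list also held the granule gene Fcnb at 0.836, Ngp at 0.842 and Cebpe, a transcription factor gene of granule formation, at 0.842. In all, 5 of the 15 genes belonged to the granule list, as did 17 of the 234 genes of the table. Chil3 and Camp are markers the authors give for this population, so the count is no separate support for its name.

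In Monocyte prog I, the histone genes took the last 3 places of 20. H1f5 had an AUC of 0.841, H2ax 0.835 and H1f4 0.804, against 0.843 to 0.902 for the other 17 genes. F13a1, the coagulation factor XIII gene of monocytes, led the list with 0.902. The fibronectin gene Fn1 and the integrin gene Itga1 stood at 0.892 each. In all, 4 of the 20 genes belonged to the monocyte list, as did 9 of the 234 genes of the table. Macrophages held more of that list, with 6 genes. F13a1 and Itga1 are markers the authors give for Monocyte prog I, so the count is no separate support for its name. H1f4 was 0.031 below its neighbor H2ax, the widest step among the 20 genes of Monocyte prog I, and 287 of the 293 entries of the table had a higher AUC. As the list was at its full length, a histone gene with a lower score than H1f4 would not have been shown.

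In Pre/pro B cells, H1f5 was the only histone gene, in 18th place of 20 with an AUC of 0.844, between Pafah1b3 at 0.858 and the transcription factor gene Tcf3 at 0.843. The list was led by the B lineage factor gene Ebf1 at 0.985 and the surrogate light chain gene Vpreb3 at 0.982. In all, 8 of its 20 genes belonged to the precursor B cell list, as did 8 of the 234 genes of the table. B cells held 6 genes of the precursor B cell list, so the count does not set precursors apart from them. Pax5 and Vpreb3 are markers the authors give for Pre/pro B cells, so the count is no separate support for the name. The lowest AUC among the 20 genes was 0.833. H1f4 had less than that in Monocyte prog I, at 0.804, and more in Immature Neutrophils I, at 0.845. Its AUC in Pre/pro B cells is unknown, so it may or may not have been missed here for a low score.

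**Figure D2:**
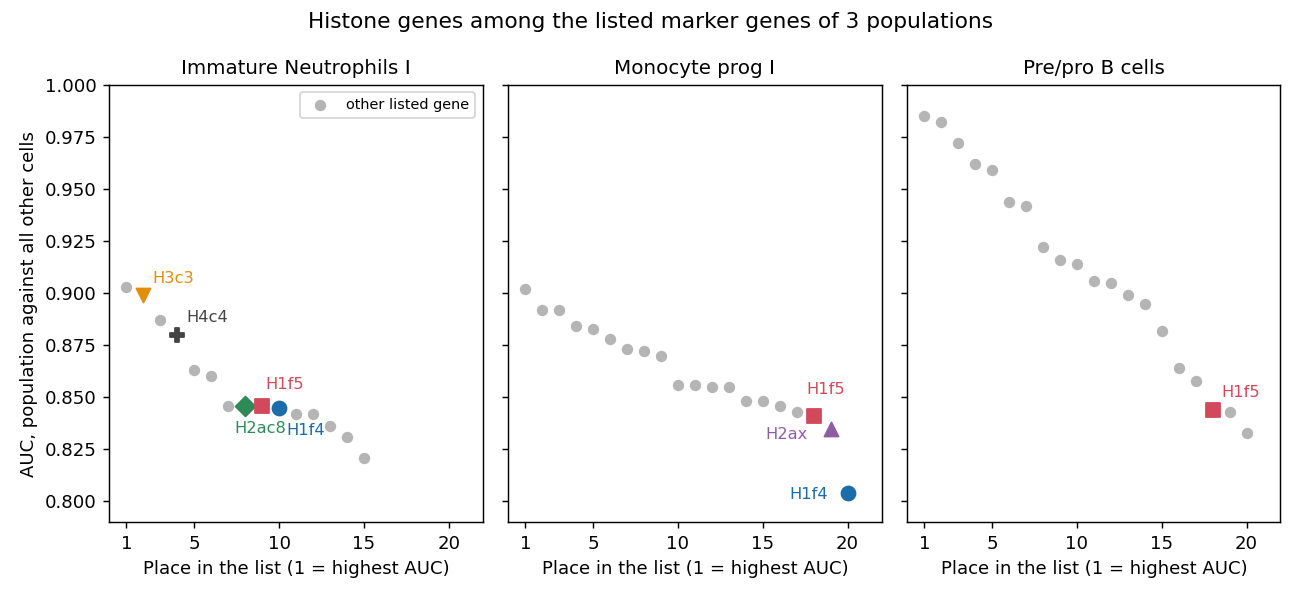
AUC (vertical axis) against place in the list (horizontal axis, 1 is the highest AUC) for every listed gene of the 3 populations, with histone genes named and in color and other genes in grey. H3c3 at 0.899 and H4c4 at 0.88 stand near the top of Immature Neutrophils I, whereas the histone genes take places 18 to 20 in Monocyte prog I and H1f5 takes place 18 in Pre/pro B cells.

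H1f5 was the histone gene listed for the most populations, 3, and its score was nearly the same in all of them, at 0.846 in Immature Neutrophils I, 0.844 in Pre/pro B cells and 0.841 in Monocyte prog I. H1f4 differed more between the pair of populations that listed it, with 0.845 in Immature Neutrophils I and 0.804 in Monocyte prog I. Top2a, a topoisomerase gene of dividing cells, ran in the other direction, with 0.86 in Immature Neutrophils I and 0.883 in Monocyte prog I. Mki67 did so by less, with 0.863 and 0.87 in the same order, and Kif11 had 0.846 in each. No error can be put on these differences.

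Values above 0 were found for histone genes in nearly all cells of the populations that listed them, and also in most other cells. H3c3 was above 0 in 98.3% of Immature Neutrophils I and 68.4% of all other cells, and H4c4 in 98.5% and 73.5% in that order. In Immature Neutrophils I, H2ac8 was above 0 in 96.3% of cells against 70.2% of all others. For H1f4 the shares were 97.6% inside that population and 74.7% outside it. H1f5 had the highest shares outside, at 98.2% of Immature Neutrophils I against 80.5% of other cells, 96.1% of Monocyte prog I against 81.3%, and 97.3% of Pre/pro B cells against 82.4%. In Monocyte prog I, H1f4 was above 0 in 95.8% of cells and in 75.6% of all others. Since the share over all cells must lie between the share inside and the share outside each population, H1f5 was above 0 in 82.4% to 96.1% of all cells of the study and H1f4 in 75.6% to 95.8%.

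H2ax stood apart from the other histone genes in its share outside. It was above 0 in 94.8% of Monocyte prog I and in 54.0% of all other cells, a gap of 40.8 percentage points, against 14.8 to 29.9 points for the other 8 histone entries. Ranked by this gap, H2ax was first of the 20 genes of Monocyte prog I, although it was 19th by AUC. In Immature Neutrophils I, H3c3 kept 2nd place with 29.9 points, behind Cebpe with 35.5 points. H4c4 was 6th there with 25.0 points, behind the cell cycle gene Kif11 with 27.1 points. H1f5 was 13th of 15 there by this measure with 17.7 points, and it was 19th of 20 both in Monocyte prog I with 14.8 points and in Pre/pro B cells with 14.9 points.

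**Figure D3:**
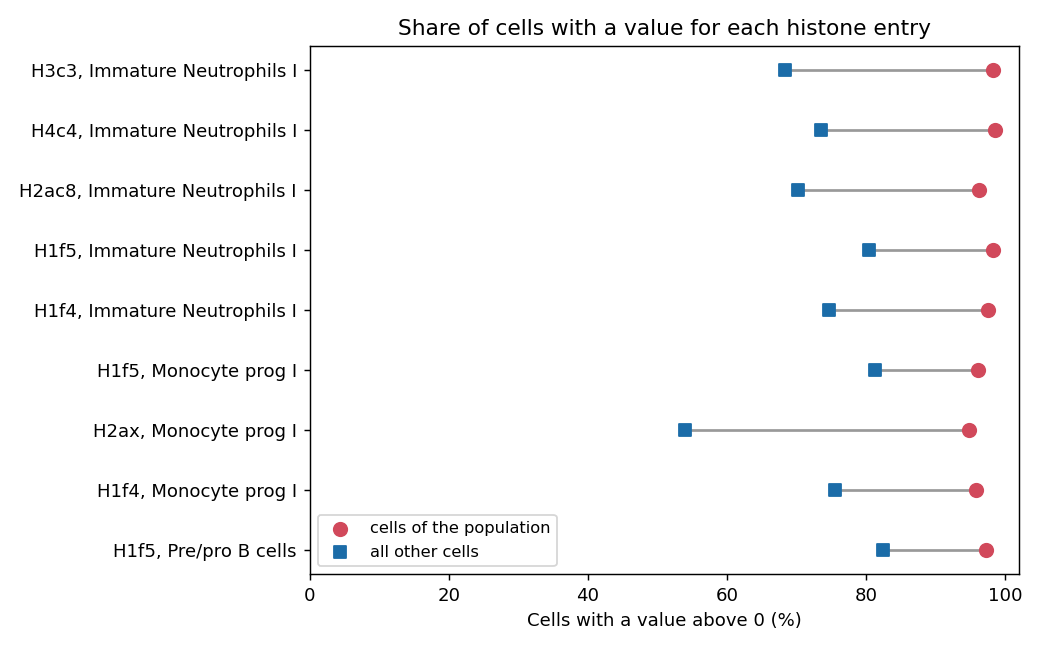
Percentage of cells with a value above 0 (horizontal axis) for each of the 9 histone entries, with circles for the cells of the population and squares for all other cells. Circles lie between 94.8% and 98.5%, and squares between 68.4% and 82.4% except for H2ax at 54.0%.

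A value above 0 in other cells cannot be read as expression there, and what it reflects was not tested. Shares for genes of narrow lineages are given beside it. These genes were listed because they separate their own populations, so they do not measure a background for histone genes. Siglech, a surface lectin gene of plasmacytoid dendritic cells, was above 0 in 99.9% of Dendritic cells and still in 37.6% of all other cells. Prss34, a basophil protease gene, was above 0 in 95.3% of Eosinophil/Basophil prog and 45.4% of other cells, and the T cell receptor complex gene Cd3e in 94.5% of T/NK cells and 20.5% of other cells. Over 9 such genes that were each listed for 1 population, the share outside ran from 20.5% to 59.2% with a median of 45.9%. Cd79b, Ebf1 and Vpreb3 were left out of this range after their values were seen, because B cells and Pre/pro B cells both listed them. The 54.0% of H2ax lay within this range and the other 8 histone entries above it. With Cd79b, Ebf1 and Vpreb3 kept in, the share outside ran from 20.5% to 68.5%. H3c3, at 68.4%, then lay within the range too. No source used here tells whether shares rest on UMI counts or on values after integration of the samples, and the depth of the populations is not known.

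**Figure D4:**
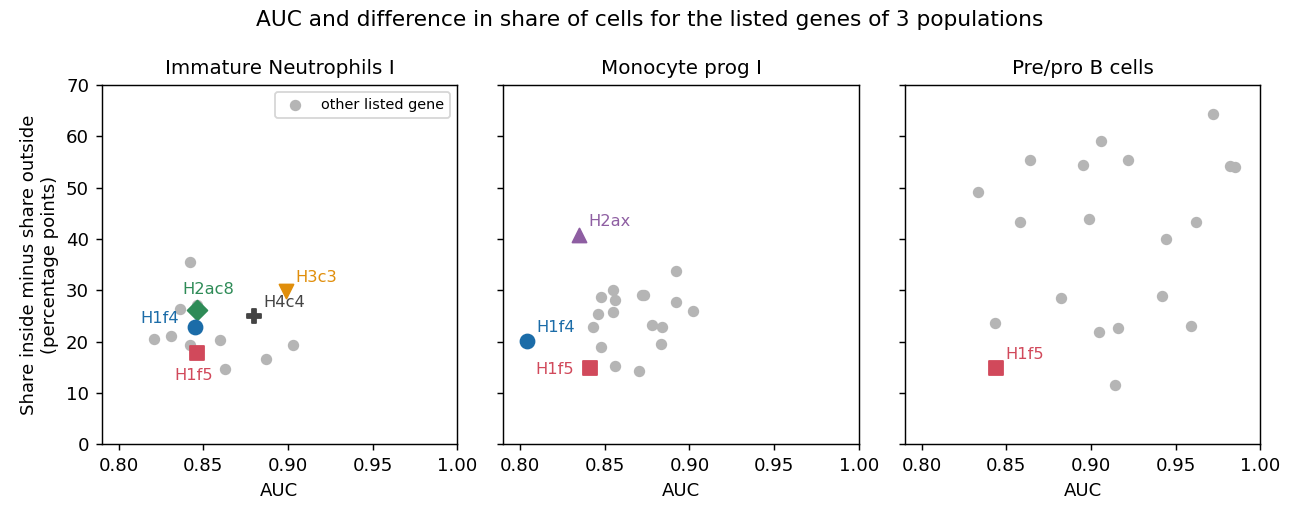
Share of cells inside minus share outside the population in percentage points (vertical axis) against AUC (horizontal axis) for every listed gene of the 3 populations, histone genes named and in color, other genes in grey. H2ax has the largest gap in Monocyte prog I at 40.8 points despite an AUC of 0.835, and H1f5 lies near the bottom of each panel at 14.8 to 17.7 points.

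Against all entries of the table, the histone entries had somewhat low scores. Their AUC had a median of 0.845 and ran from 0.804 to 0.899, while the median over all 293 entries was 0.874. Within Immature Neutrophils I, the median AUC was 0.846 for the histone entries and 0.844 for the other genes. In Monocyte prog I it was 0.835 against 0.87, and in Pre/pro B cells H1f5 had 0.844 against a median of 0.914. The gap between the shares of cells had a median of 22.9 points for the 9 histone entries and 28.1 points for all entries, and the share outside had a median of 74.7% against 67.5%. Within Immature Neutrophils I, the 5 histone entries had a median gap of 25.0 points, against 20.4 points for the 10 other genes. In Monocyte prog I it was the other way round, with 20.2 points for the 3 histone entries and 25.8 points for the 17 other genes. In Pre/pro B cells the 14.9 points of H1f5 compared with a median of 43.2 points for the 19 other genes.

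The listings of histone genes were set beside those of other genes of the cell cycle. Immature Neutrophils I listed 4 genes of the lists of S phase and of G2 and M phase, namely Mki67, Top2a, Kif11 and the nucleosome-binding protein gene Hmgn2 at 0.831. Monocyte prog I listed 9, among them the tubulin gene Tubb5 at 0.884, Top2a at 0.883, the midzone protein gene Prc1 at 0.873 and the survivin gene Birc5 at 0.843. These were 4 of 15 and 9 of 20 listed genes, beside 8.12% of the 234 genes of the table. Both counts rest on the lists as drawn, which hold Hmgn2, Tubb5, Tuba1b and Pclaf. The lists were drawn with earlier results known, so whether histone genes marked dividing cells is not read from these counts. H1f4 was listed for exactly the same populations as Kif11, Mki67 and Top2a. H1f5 shared 2 of its 3 populations with each of them, a Jaccard index of 0.667 over populations. H2ac8, H3c3 and H4c4 had their single population in common with Hmgn2 and Syne2, and H2ax had it in common with 9 genes, among them Birc5, Prc1, Pclaf, Tmpo, Tuba1b and Tubb5.

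In Pre/pro B cells, 0 of the 20 listed genes belonged to the cell cycle lists, beside 8.12% of the 234 genes of the table. That list was at its full length and its lowest AUC was high, so the levels of cell cycle genes in these cells are unknown and the table does not show whether the cells that H1f5 marked there were dividing. The 0 also rests on the cell cycle lists as drawn, which hold Hmgn2 but not Ezh2 or Hmgb1. Pre/pro B cells listed these last chromatin genes at 0.916 and 0.914. Immature Neutrophils II listed 6 cell cycle genes, led by the kinetochore gene Cenpf at 0.922, and 0 of the 6 histone genes, a count that is near what the 6.41% of the table's genes in this list would give. With 15 genes this list was not at full length. It held Cenpa, the H3 variant of the centromere, at 0.842. Immature Neutrophils III listed the S phase genes Cdc25a at 0.819 and Lig1 at 0.803, and 0 of the 6 histone genes, in a list of 6 genes or 2.56% of the table, so that this 0 too says little.

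The populations that listed histone genes listed 10 of the 133 genes on the cell cycle lists, and all 10 came from the G2 and M phase list. Of the 52 genes on the S phase list, 3 were listed anywhere, Cdc25a and Lig1 as above and the helicase subunit gene Mcm3 at 0.872 in Monocyte prog II, and 0 of them for a population that listed a histone gene. Of the 81 genes on the G2 and M phase list, 16 were listed anywhere. The populations with histone genes listed 6.41%, 8.55% and 8.55% of the table's genes, so 0 of 3 is near that background. The split by phase also rests on the lists as drawn, and nothing is read from it. Pclaf, at 0.856 in Monocyte prog I, was counted with the G2 and M phase list although its protein binds the PCNA clamp of replicating DNA. Of 22 genes for histone supply and chromatin assembly, such as Slbp, Npat and Chaf1a, 0 were listed. Over all 21900 protein-coding genes of RefSeq, 226 or 1.03% stood in the table under the same symbol, so 0 of 22 is near that background. Which genes the authors could test is not known, and genes found in few cells could hardly be listed. Beside the same 1.03%, 5 of 62 replication-dependent histone genes were listed. Of 12 replacement and variant histone genes 3 were listed, which were H2ax, Cenpa and Macroh2a1. Histone genes were picked because they stood in the table, so nothing is read from these counts. Macroh2a1, an H2A variant with a large extra domain, had an AUC of 0.875 in Lymphomyeloid prog II and 0.842 in Monocyte prog II.

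Several of the 6 genes share sequence with other genes, and this limits what their values mean for a single gene. Of all 50-base stretches of the GENCODE transcript, 47.0% for H3c3 and 43.2% for H2ac8 also occurred in transcripts of other genes, of which there were 12 and 24. The share was 32.0% for H1f4, 10.2% for H4c4 and 6.14% for H2ax. For H1f4 the gene that shared most stretches was Hist1h2be, by its symbol an H2B gene and not a copy of H1f4. H1f5 shared 0 of its 694 stretches, although its annotated transcript lacks the 3′ end that the kit reads, and where its reads fell was not examined. No source used here says how reads that fit several genes were treated, and the values of H3c3 and H2ac8 are therefore uncertain as measures of those single genes.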

How the data were processed

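Mononuclear bone marrow cells were profiled with a droplet-based 3′ kit. Cell Ranger, Seurat 4 and mm10 are named in the submitters' processing notes. Per the study's methods, cells were filtered on detected genes and mitochondrial share, samples were integrated, and cells were clustered. No source used here tells how doublets were treated. The methods name MAST for the marker search, while the columns are those of Seurat's ROC test. In the deposited table, AUC and power are scores of each gene and the shares of cells (pct.1 and pct.2) are fractions between 0 and 1, all pooled over the mice by the authors. Shares were turned into percentages here. Power equalled 2 × AUC − 1 in all 293 entries within 0.001 and was not used further. The authors' fold changes, deposited on the log2 scale and as a difference on the natural log scale, are their own comparisons and were not used. Columns of values per sample numbered 0.

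Histone genes were found by symbol and kept with the authors' population names, punctuation made uniform. Ranks, gaps and counts were computed with Python 3.11.15 and pandas 2.3.3, and ranking was tested on simulated data. No test between populations was made, since clusters and their markers come from the same cells and there are no replicates. Genes were named by rule: the members, their list neighbors, list leaders, cell cycle and histone list genes in the same populations, genes with the most alike listings, and lineage-restricted genes. Other genes named, such as Fn1, Cebpe and those of populations without a member, were chosen after their values were seen. Members and lists were chosen with earlier results of these data known. H4c4 was added because it meets the symbol rule. Of 74 symbols on the histone lists, 72 are known to RefSeq. Positions and promoters came from RefSeq GRCm38.p6 and transcripts from GENCODE; a promoter was found for 5 of the 6 genes. Alternatives were an AUC minimum of 0.85, older symbols, ranking by gap or ratio of shares, the mean in place of the median, and other sets of histone genes.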

Additional observations from a re-analysis of the deposited data

How the results depend on the processing

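With entries of an AUC of at least 0.85 alone, 2 histone entries were left of 9 (H3c3 and H4c4), in 1 population rather than 3. At that minimum the same 3 populations held 6 cell cycle genes rather than 10, and Immature Neutrophils I, the one left with a histone gene, held 2. With Cenpa and Macroh2a1 counted as histone genes, 6 populations listed one and there were 12 entries. Without H4c4 there were 8 entries in 3 populations, and older symbols added none. These sets of genes and the count of 2 were chosen after seeing the data. The median gap in shares of 22.9 points became 23.6 points as a mean, 21.5 without H4c4 and 19.9 with Cenpa and Macroh2a1. Ranked by the gap in shares in place of AUC, 4 of the 9 entries moved up, 4 moved down and 1 kept its place, and by the ratio of shares 4 moved up, 3 moved down and 2 kept theirs. The widest move was that of H2ax, which was 19th by AUC and 1st by either. The cause was not tested. No paired analysis was possible because the table holds no value per sample, and for the same reason no replicate could be left out. Depth limits all shares and is not known.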
